A study of Mus musculus with 14 samples.

Results

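The 10 genes of the circadian clock examined here, Per1, Per2, Per3, Cry1, Cry2, Clock, Npas2, Arntl, Nr1d1 and Dbp, were taken by gene name from 2 RNA-seq count tables of the mouse dorsal hippocampus. They are 10 of the 27591 genes listed in either table, each was found in both tables, and all 10 passed the filter on low counts. The series holds 14 libraries in 6 groups of male C57BL6 mice aged 8 months. In the basal experiment, untreated mice that were not trained were compared as 3 WT (basal WT) and 2 THY-Tau22 (basal TAU) libraries. In the learning experiment, WT mice injected with saline either stayed in the home cage (WT VEH_HC, 3 libraries) or were trained for a few days in the Morris water maze and killed shortly after the last trial (WT VEH, 2 libraries). Trained THY-Tau22 mice received carbon nanospheres alone (CSP; TAU VEH, 2 libraries) or nanospheres carrying TTK21, an activator of the acetyltransferases CBP and p300 (CSP-TTK21; TAU MOL, 2 libraries). THY-Tau22 mice are heterozygous for a mutated human Tau driven in neurons by the Thy1.2 promoter. No THY-Tau22 mouse of the learning experiment stayed in the home cage, and genotype and injected vehicle cannot be told apart between TAU VEH and WT VEH.

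The circadian clock is a transcriptional loop that runs with a period of about a day in most cells. CLOCK, or its paralog NPAS2, pairs with the product of Arntl (BMAL1) and activates genes with an E-box in their promoters, among them the Per and Cry genes. PER and CRY proteins then repress that same pair. Nr1d1 encodes REV-ERB alpha, a nuclear receptor that represses Arntl through ROR elements. Dbp encodes a leucine zipper factor that acts on D-boxes and is a much used output of the loop. In nocturnal mice, Arntl, Clock and Npas2 transcripts are usually high around the early day, and those of Dbp, Nr1d1 and the Per genes later in the day. Per1 is also an immediate early gene in neurons and responds to glucocorticoids, so that its level is not a clock reading alone.

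To set the sequence beside the values, the window from 250 bases before to 50 after each RefSeq transcript start was searched on both strands for an E-box (CACGTG), a D-box (TTANGTAA), the core of a ROR element (TAGGTCA), a cAMP response element (TGACGTCA) and the palindromic glucocorticoid response element. RefSeq windows (GRCm38.p6) were at hand for 9 of the 10 genes, without Per2, and each was placed by a unique match on its mm9 chromosome. The stretches with a match are shown 5′ to 3′ on the strand of the gene, with the motif in capitals. They are Per1 at chr11:68912245-68912330 on the plus strand, Per3 at chr4:150418885-150419019 on the minus strand, Cry1 at chr10:84647814-84647899 on the minus strand and Arntl at chr7:120351045-120351071 on the plus strand, all in mm9.
Per1, E-box: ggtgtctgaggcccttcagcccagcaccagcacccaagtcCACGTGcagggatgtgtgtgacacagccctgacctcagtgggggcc
Cry1, E-box: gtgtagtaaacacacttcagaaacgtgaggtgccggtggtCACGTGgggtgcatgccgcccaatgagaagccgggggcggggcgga
Per3, D-boxes: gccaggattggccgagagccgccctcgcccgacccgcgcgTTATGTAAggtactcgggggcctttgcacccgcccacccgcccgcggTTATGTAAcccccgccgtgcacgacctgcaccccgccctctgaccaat
Arntl, ROR core: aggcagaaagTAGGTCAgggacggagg

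The E-box of Per1 began 166 bases before one of its 2 RefSeq starts, which lies 3732 bases inside the gene as annotated on mm9, and the window of the other start held no match. That of Cry1 began 60 bases before its start. Per3 had its D-boxes at 205 and 158 bases before the start, and Arntl had the ROR core 31 bases after the start of one of its transcripts, in the first exon. Of all 32851 windows, 7.15% held the E-box letters, 2.32% the D-box and 2.61% the ROR core. The cAMP response element (1.79% of windows) and the glucocorticoid response element (0.475%) were not found in any of the windows of the 9 genes. A match is a description of these windows, since no binding was measured here.

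Levels are given as CPM, the count scaled to a common library size with TMM factors, with each table scaled alone. Each table held the 10 genes at no fewer than 315 counts in any library, and library totals ran from 28639121 to 37681155 counts in the basal and from 24693713 to 52180305 in the learning experiment. All 8 markers of hippocampal neurons were detected in every library (summed level 1334 to 1812 CPM). The 14 choroid plexus markers, none of them at 0 in any library, differed between groups and summed to 1617 to 2498 CPM in WT VEH, 81.25 to 243 in WT VEH_HC, 244 to 291 in TAU VEH and 728 to 796 in TAU MOL. Basal TAU replicate 2 stood apart from the other basal libraries, with 1334 CPM of choroid plexus markers against 276 to 445 in the other 4. Its log2 levels, centred on the mean of the table for each gene, also fell with GC content across genes (Spearman rho −0.60, against 0.07 to 0.48 in the other basal libraries; a description across genes). In bulk tissue, fewer cells of a type and less RNA per cell cannot be told apart.

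**Figure D1:**
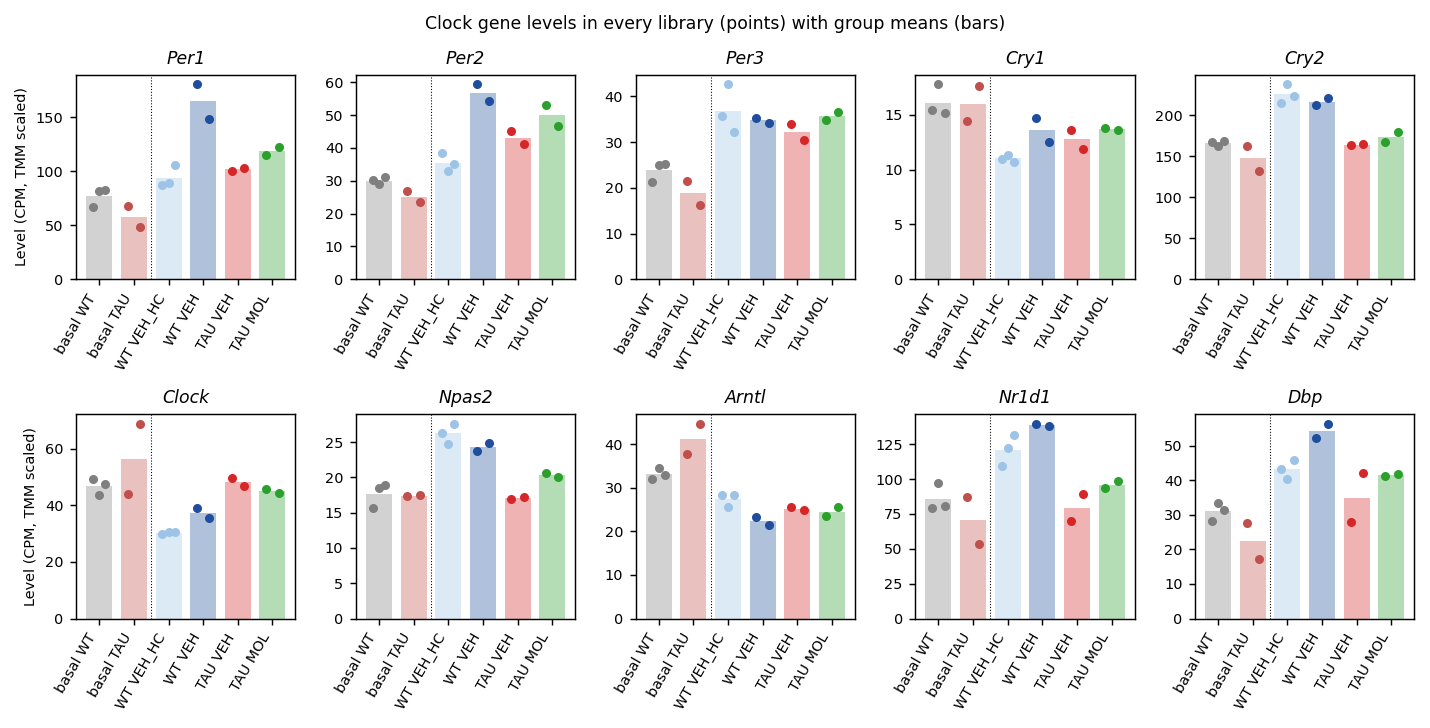
Level of each of the 10 clock genes in CPM with TMM scaling (y axis, from 0) in every library (points) of the 6 groups (x axis), with the group mean as a bar; the dotted line parts the basal from the learning table, which were scaled separately. Per1 reached 149 and 181 CPM in WT VEH and stayed at 123 CPM or less in every other library.

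Per kilobase of exon, which allows genes to be compared, Nr1d1 and Cry2 had the highest levels among the 10 genes (group means of 22.55 to 44.4 and 23.4 to 35.7 CPM per kb over both tables). Per1 spanned 10.3 to 29.3, Dbp 7.60 to 18.4, Arntl 7.62 to 14.1 and Per2 4.29 to 9.73 CPM per kb. Per3 spanned 1.97 to 3.84, Cry1 3.66 to 5.34, Npas2 3.58 to 5.48 and Clock 3.42 to 6.38 CPM per kb. Some of these genes share exonic bases with a neighbour on the opposite strand, where a library kit that does not mark strand cannot assign the reads. This touched 16.7% of the exon bases of Dbp (Sphk2), 8.42% of those of Nr1d1 (Thra) and 4.67% of those of Cry2 (D930015M05Rik).

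Spatial training was compared with the home cage in WT mice. Per1 and Per2 were higher after training by 1.75-fold and 1.60-fold, Clock was 1.23-fold higher, and Arntl was lower (0.815-fold). The other 6 genes did not pass the test, which was the quasi-likelihood F test of edgeR with p-values adjusted after Benjamini and Hochberg over 16820 genes. A gene was called at an adjusted p under 0.05 with a log2 fold change beyond 0.2 in either direction. The 3 of 10 genes called higher stand beside 5.35% of all genes, the 1 of 10 called lower beside 3.05%, and the 4 called in all beside 8.4%. The libraries of WT VEH lay wholly above those of WT VEH_HC for 6 of the 10 genes and wholly below for 1, against 43.8% of all genes in either direction.

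Per1, a repressor of the loop, stood at 181 and 149 CPM in WT VEH and at 87.4, 89.6 and 106 CPM in WT VEH_HC. The groups did not overlap, and WT VEH replicate 1 was the highest of the learning libraries (log2 fold change 0.81 ± 0.10 SE, adjusted p = 0.00103). Per2, its close homolog, stood at 59.4 and 54.3 CPM in WT VEH and at 38.45, 32.85 and 35.01 CPM in WT VEH_HC (0.68 ± 0.09 SE, adjusted p = 0.00147). Both trained libraries thus lay above each home cage library for both genes. Per3, the third member of the family, gave 35.3 and 34.2 CPM after training and 35.6, 42.7 and 32.3 CPM in the home cage, with overlapping groups (−0.09 ± 0.10 SE, adjusted p = 0.629; 95% interval of the log2 fold change −0.31 to 0.14).

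The cryptochromes, which bind PER proteins in the repressor complex, did not pass the test. Cry1 was at 14.7 and 12.5 CPM in WT VEH and at 11.01, 11.4 and 10.7 CPM in WT VEH_HC, without overlap (0.30 ± 0.10 SE, adjusted p = 0.0719). Cry2 was at 212 and 221 CPM against 215, 238 and 223 CPM, with overlap (−0.06 ± 0.06 SE, adjusted p = 0.588).

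Among the activators, Clock was at 39.1 and 35.6 CPM in WT VEH and at 29.85, 30.45 and 30.4 CPM in WT VEH_HC (0.30 ± 0.07 SE, adjusted p = 0.0236). Arntl was at 23.2 and 21.35 CPM in WT VEH, below the 28.3, 25.6 and 28.2 CPM of WT VEH_HC (−0.29 ± 0.08 SE, adjusted p = 0.0418). The partners of the activator dimer were thus called in opposite directions. Npas2 overlapped between the groups, at 23.7 and 24.9 CPM against 26.3, 24.75 and 27.6 CPM (−0.11 ± 0.07 SE, adjusted p = 0.336). Nr1d1, at 139.8 and 138 CPM against 109.5, 122.5 and 131.5 CPM, and Dbp, at 52.3 and 56.3 CPM against 43.2, 40.4 and 45.9 CPM, were higher in both trained libraries than in each home cage library but did not pass the test (log2 fold changes 0.20 ± 0.10 SE and 0.33 ± 0.13 SE, adjusted p = 0.22 and 0.127).

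The calls of Clock and Arntl were lost when any one of 3 libraries was left out, where fewer of all genes were called too. Clock was not called without WT VEH replicate 1 (log2 fold change 0.23), WT VEH replicate 2 (0.37) or WT VEH_HC replicate 1 (0.30), and neither was Arntl (−0.36, −0.23 and −0.27). These fits called 0.422%, 1.63% and 3.67% of all genes, against 8.4% with all libraries. Without WT VEH replicate 1, Per2 was at 0.62 and was not called either, and 1 of the 10 genes, Per1, remained. Each of these fits had fewer libraries, and where WT VEH kept 1 library it was assumed to vary like the other groups. With a correction for the GC content and length of genes in each library, the same 4 genes were called (Per1 0.87, Per2 0.77, Clock 0.23 and Arntl −0.30), beside 4.71% of all genes.

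Markers of other processes and tissues moved with the same contrast. All 6 immediate early genes of the study (Arc, Nr4a1, Fos, Egr1, Junb and Dusp1) were called higher after training, and their summed level was 909.9 to 1087 CPM in WT VEH against 392 to 420.5 in WT VEH_HC. Of 14 glucocorticoid-responsive genes, 4 were called higher and 0 lower by edgeR (10 had an unadjusted p under 0.05, and DESeq2 called 8 higher), and the libraries of 10 lay wholly higher. Of all genes, 5.35% were called higher and 43.8% did not overlap in either direction. Those called were Tsc22d3 (0.91 ± 0.08 SE, adjusted p = 0.000164), Sgk1 (0.996 ± 0.184 SE, 0.0127), Errfi1 (0.54 ± 0.08 SE, 0.00345) and Nfkbia (0.49 ± 0.12 SE, 0.0358), while Fkbp5 did not pass the test (0.15 ± 0.09 SE, adjusted p = 0.267). The summed level of the 14 genes was 939 to 966 CPM in WT VEH and 713 to 836 in WT VEH_HC. Over all genes, 4683 of 16820 had an unadjusted p under 0.05, and DESeq2 called 1845 of 25933 in either direction. All 14 choroid plexus markers were called higher, with a median log2 fold change of 3.50. With the mean log2 level of the choroid plexus markers as a covariate, edgeR called 0 of the 10 clock genes (0 had an unadjusted p under 0.05) and 0.0% of all genes, and on the log2 scale Per1 was at 0.02, Per2 at 0.58 and Clock at 0.20, nearer to zero than without it, and Arntl at −0.53, farther from zero. Of the genes not called without it, Per3 was then at 0.63, Cry1 at 0.33, Cry2 at 0.09, Npas2 at −0.34, Nr1d1 at −0.30 and Dbp at −0.12. The choroid plexus level was nearly confounded with group, which leaves that fit little to estimate the groups from. The part of these processes in the difference of the clock genes was not tested.

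**Figure D2:**
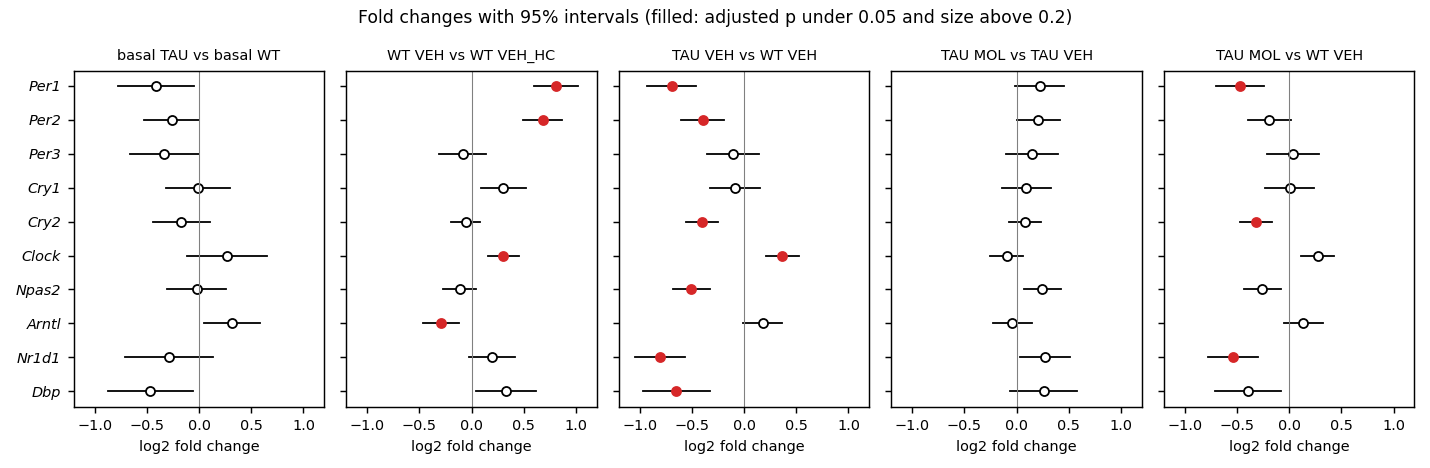
Log2 fold change (x axis) of the 10 clock genes (rows) in the 5 comparisons (panels, first group against second), with 95% intervals from the edgeR fit as lines and called genes as filled red points. Per1 and Per2 lie to the right for WT VEH vs WT VEH_HC, and 6 genes called lower lie to the left for TAU VEH vs WT VEH.

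Trained THY-Tau22 mice given the nanospheres alone were compared with trained WT mice given saline. Here 7 of the 10 clock genes were called, beside 14.4% of all genes. Nr1d1, Per1, Dbp, Npas2, Cry2 and Per2 were lower in TAU VEH, at 0.571-fold, 0.619-fold, 0.637-fold, 0.705-fold, 0.758-fold and 0.759-fold of WT VEH, and Clock was 1.29-fold higher. The 6 of 10 called lower stand beside 10.8% of all genes and the 1 of 10 called higher beside 3.61%. The libraries of 7 genes lay wholly lower and those of 2 wholly higher, against 57.9% of all genes in either direction. In TAU MOL against TAU VEH, where 2 libraries also meet 2, that share was 38.9%. Over the 10 genes the median on the log2 scale was −0.40, and over all genes 0.00.

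Nr1d1, the repressor of Arntl, was at 70.0 and 89.1 CPM in TAU VEH and at 139.8 and 138 CPM in WT VEH (log2 fold change −0.81 ± 0.11 SE, adjusted p = 0.00124). Dbp, the output gene, was at 27.8 and 42.1 CPM in TAU VEH and at 52.3 and 56.3 CPM in WT VEH (−0.65 ± 0.15 SE, adjusted p = 0.0117). Neither gene overlapped between the groups, and for both, TAU VEH replicate 1 was the lower of the pair. Per1 was at 100.7 and 103 CPM in TAU VEH against 181 and 149 CPM (−0.69 ± 0.11 SE, adjusted p = 0.00179), and Per2 at 45.03 and 41.1 CPM against 59.4 and 54.3 CPM (−0.40 ± 0.10 SE, adjusted p = 0.0166). The Per1 level of TAU VEH thus fell within the range of the home cage WT libraries (87.4 to 106 CPM), whereas the Per2 level of TAU VEH lay above theirs (32.85 to 38.45 CPM). Per3 was at 34.04 and 30.5 CPM in TAU VEH and at 35.3 and 34.2 CPM in WT VEH and did not pass the test (−0.10 ± 0.11 SE, adjusted p = 0.632).

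Of the cryptochromes, Cry2 was at 164 and 164.5 CPM in TAU VEH and at 212 and 221 CPM in WT VEH (−0.40 ± 0.07 SE, adjusted p = 0.003). Cry1 overlapped, at 13.7 and 11.9 CPM against 14.7 and 12.5 CPM (−0.09 ± 0.11 SE, adjusted p = 0.677). The paralogous activators were called in opposite directions. Npas2 was at 17.0 and 17.25 CPM in TAU VEH and at 23.7 and 24.9 CPM in WT VEH (−0.50 ± 0.08 SE, adjusted p = 0.0021), whereas Clock was at 49.6 and 46.6 CPM in TAU VEH and at 39.1 and 35.6 CPM in WT VEH (0.37 ± 0.07 SE, adjusted p = 0.00622). Arntl, their partner, was at 25.65 and 24.8 CPM in TAU VEH and at 23.2 and 21.35 CPM in WT VEH, higher without overlap but not called (0.18 ± 0.09 SE, adjusted p = 0.206).

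Nr1d1, Per1, Npas2 and Cry2 remained called whichever library of the groups was left out, in fits that called 5.29% to 7.36% of all genes. Clock was not called without WT VEH replicate 2 (log2 fold change 0.30) or TAU VEH replicate 1 (0.32). Per2 was not called without WT VEH replicate 1 (−0.32), TAU VEH replicate 1 (−0.47) or TAU VEH replicate 2 (−0.34). Dbp was not called without WT VEH replicate 1 (−0.70), WT VEH replicate 2 (−0.60) or TAU VEH replicate 1 (−0.37). Scaling by library size alone moved the median of all genes to 0.15 and that of the 10 genes to −0.25. A change of scaling shifts all genes nearly alike, so the gap between these medians is no further evidence. Arntl was then called, higher, and Per2 was not.

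GC content differed among the clock genes and moved with this comparison. Over all genes, the log2 fold change fell with the GC content of the exons (Spearman rho −0.52 across 16780 genes, which are not independent replicates). Clock had the lowest GC content of the 10 genes (42.3%), and Per1 (58.7%), Dbp (58.0%) and Nr1d1 (56.4%) the highest. The median log2 fold change of genes within 1 percentage point of GC content was −0.29 around Per1, −0.27 around Dbp, −0.19 around Nr1d1 and −0.09 around Npas2, and 0.17 around Clock. From the median of their own windows, Nr1d1 differed by −0.62, Npas2 by −0.41, Per1 by −0.40, Dbp by −0.38, Cry2 by −0.34, Per2 by −0.28 and Clock by 0.20, and the genes that were not called by −0.13 (Per3), −0.07 (Cry1) and 0.10 (Arntl). These differences are descriptions, since the first 7 had been called on the same fold changes. With a correction for GC content and length in each library, 3 of the 10 genes were called, Nr1d1 (−0.60), Npas2 (−0.39) and Cry2 (−0.34), beside 2.77% of all genes. Per1 (−0.39), Dbp (−0.38), Per2 (−0.27) and Clock (0.21) kept their direction and were not called.

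**Figure D3:**
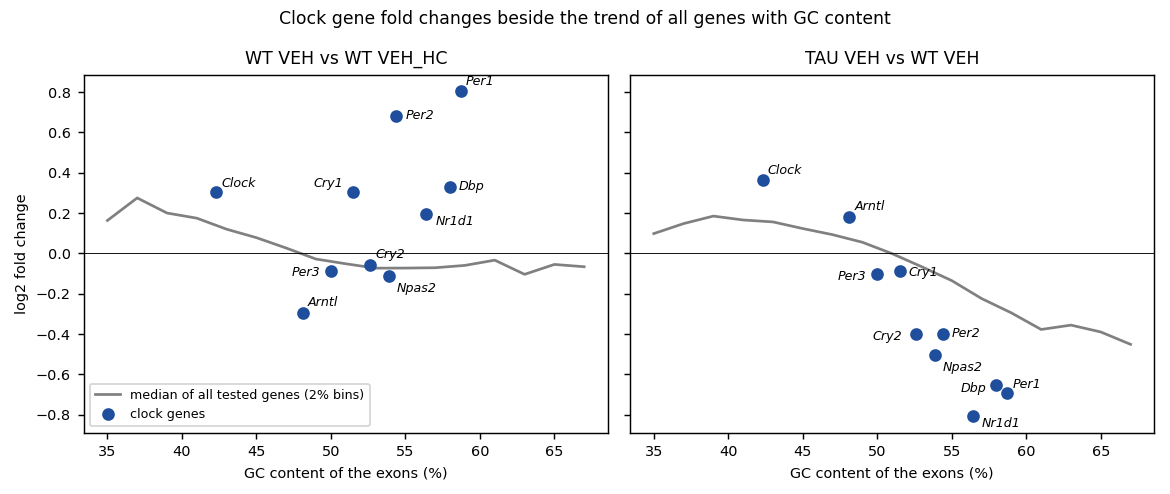
Log2 fold change (y axis) of the 10 clock genes (blue points) against the GC content of their exons in percent (x axis), for training in WT mice (left) and for TAU VEH vs WT VEH (right), with the median of all tested genes in bins of 2 percentage points as a grey line. Per1 and Per2 lie above the line on the left, and on the right Clock and Arntl lie above it and the other 8 genes below.

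The same contrast held lower choroid plexus and immediate early genes. All 14 choroid plexus markers were called lower in TAU VEH (median log2 fold change −2.51), and 4 of the 6 immediate early genes were, with summed levels of 569 to 649 CPM in TAU VEH against 909.9 to 1087 in WT VEH, beside 10.8% of all genes called lower. Of the 14 glucocorticoid-responsive genes, 0 were called lower and 1 higher by edgeR (2 had an unadjusted p under 0.05, and DESeq2 called 1 higher and 1 lower), Plin4 (1.05 ± 0.27 SE, adjusted p = 0.0245), and Tsc22d3 was at −0.01 ± 0.09 SE (adjusted p = 0.955). The list summed to 882 to 914 CPM in TAU VEH and 939 to 966 in WT VEH. Over all genes, 4566 of 16820 had an unadjusted p under 0.05, and DESeq2 called 2491 of 25933 in either direction. With the choroid plexus level as a covariate, edgeR called 0 of the 10 clock genes (3 had an unadjusted p under 0.05) and 0.0% of all genes, with Nr1d1 at −0.46, Npas2 at −0.35, Dbp at −0.34, Per2 at −0.33 and Per1 at −0.15 on the log2 scale, nearer to zero than without it, and Cry2 at −0.50 and Clock at 0.44, farther from zero. Of the genes not called without it, Per3 was then at −0.59, Arntl at 0.34 and Cry1 at −0.10. Here too the choroid plexus level was nearly confounded with group.

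TAU MOL and TAU VEH were compared to show the difference between CSP-TTK21 and the nanospheres alone in trained THY-Tau22 mice. None of the 10 clock genes was called by edgeR, and 0.0% of all genes were. At an unadjusted p under 0.05 there were 3 of the 10, Npas2, Nr1d1 and Per2, and 1064 of all genes, and DESeq2 called 0 of the 10 and 54 of all genes. The libraries of TAU MOL lay wholly above those of TAU VEH for 6 genes and wholly below for 1, Clock, beside 38.9% of all genes. Npas2 was at 20.6 and 20.05 CPM in TAU MOL against 17.0 and 17.25 CPM (0.25 ± 0.08 SE, 95% interval 0.07 to 0.43, adjusted p = 0.585). Nr1d1 was at 93.5 and 98.4 CPM against 70.0 and 89.1 CPM (0.27 ± 0.11 SE, 95% interval 0.03 to 0.52, adjusted p = 0.742). The interval of Per2 ran from just above zero to 0.42, and those of the other 7 genes held zero and lay between −0.25 and 0.58. Per1 was at 115 and 123 CPM in TAU MOL against 100.7 and 103 CPM (0.22 ± 0.11 SE, adjusted p = 0.817), and Dbp at 41.2 and 41.65 CPM against 27.8 and 42.1 CPM, with overlap (0.26 ± 0.15 SE, adjusted p = 0.871). Without TAU VEH replicate 1, Nr1d1 was at 0.11 and Dbp at −0.02 on the log2 scale, and without TAU VEH replicate 2 at 0.45 and 0.58. Over all genes, the log2 fold change rose with the GC content of the exons here (Spearman rho 0.23 across 16780 genes, which are not independent replicates). With the correction for GC content and length, Per1 was at 0.12, Dbp at 0.17, Per2 at 0.17, Nr1d1 at 0.22, Npas2 at 0.21 and Clock at −0.09. The 14 choroid plexus markers lay wholly higher in TAU MOL beside these values, with 0 of them called by edgeR, 13 at an unadjusted p under 0.05 and 2 called by DESeq2. The 6 immediate early genes lay wholly higher as well, with a median log2 fold change of 0.44, 0 called by edgeR, 5 at an unadjusted p under 0.05 and 2 called by DESeq2 (Arc and Nr4a1). Their summed level was 823 to 979 CPM in TAU MOL against 569 to 649 in TAU VEH. The part of these genes in the differences of the clock genes was not tested.

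Set against the same WT VEH libraries, TAU MOL had 3 of the 10 genes called lower and 0 higher by edgeR (6 had an unadjusted p under 0.05, and DESeq2 called 4 lower and 1 higher), beside 5.02% and 0.612% of all genes and 5.63% in either direction. Over all genes, 3324 of 16820 had an unadjusted p under 0.05, and DESeq2 called 1315 of 25933 in either direction. The libraries of 6 clock genes lay wholly lower and those of 2 wholly higher, beside 52.5% of all genes. Nr1d1 was lower at 93.5 and 98.4 CPM against 139.8 and 138 CPM (−0.53 ± 0.11 SE, adjusted p = 0.0191), Per1 at 115 and 123 CPM against 181 and 149 CPM (−0.47 ± 0.11 SE, adjusted p = 0.0269) and Cry2 at 168 and 179.5 CPM against 212 and 221 CPM (−0.32 ± 0.07 SE, adjusted p = 0.0229). Clock, at 45.8 and 44.4 CPM, was not called (0.27 ± 0.07 SE, adjusted p = 0.0516). This comparison shares the WT VEH libraries with that of TAU VEH against WT VEH, so the lower values in both are not independent. Leaving out any single library of the pair of groups left 0 of the 10 genes called by edgeR (5 to 6 had an unadjusted p under 0.05), with Nr1d1 between −0.57 and −0.50, Per1 between −0.61 and −0.31 and Cry2 between −0.37 and −0.27, and the correction for GC content and length left 0 as well (3 had an unadjusted p under 0.05), with Nr1d1 at −0.38, Cry2 at −0.28 and Per1 at −0.27. Of all genes, 0.0116% to 0.0231% were called in the fits without a library and 0.0951% with that correction. With the choroid plexus level as a covariate, edgeR called 0 of the 10 genes (3 had an unadjusted p under 0.05) and 0.0119% of all genes. The median of the 10 was then −0.19 on the log2 scale, against −0.22 without it, and Per1 was at −0.20. That level was nearly confounded with group. Of the choroid plexus markers, 9 of 14 were called lower in TAU MOL by edgeR, beside 5.02% of all genes, and 2 by DESeq2, and of the immediate early genes 0 were called by edgeR (2 had an unadjusted p under 0.05) and 0 by DESeq2.

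In the separate basal experiment, the genotype was compared in untreated mice that were not trained. None of the 10 clock genes was called by edgeR, beside 0.0245% of all genes (4 of 16324). At an unadjusted p under 0.05 there were 4 of the 10 (Per1, Per3, Arntl and Dbp) and 803 of all genes, and DESeq2 called 0 of the 10 and 41 of all genes. The libraries of 2 genes, Per2 and Dbp, lay wholly lower in basal TAU and those of 1, Arntl, wholly higher, beside 18.5% of all genes. Dbp was at 27.5 and 17.2 CPM in basal TAU and at 28.2, 33.4 and 31.4 CPM in basal WT (−0.47 ± 0.18 SE, adjusted p = 0.901). Arntl was at 37.8 and 44.7 CPM in basal TAU and at 31.9, 34.4 and 33.0 CPM in basal WT (0.32 ± 0.12 SE, adjusted p = 0.901). In both genes the farther value was that of replicate 2, the library that stood apart. Per1 was at 67.8 and 48.0 CPM against 66.5, 81.9 and 83.0 CPM (−0.41 ± 0.16 SE, adjusted p = 0.901), and Per3 at 21.4 and 16.3 CPM against 21.2, 25.1 and 25.2 CPM (−0.33 ± 0.15 SE, adjusted p = 0.901).

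Without basal TAU replicate 2, Dbp was at −0.17, Arntl at 0.19, Per1 at −0.19 and Per3 at −0.15 on the log2 scale, while Clock turned from 0.27 to −0.09 and Nr1d1 from −0.28 to 0.02. Clock had been at 43.9 and 68.8 CPM in basal TAU (43.6 to 49.2 in basal WT) and Nr1d1 at 87.2 and 53.7 CPM (79.6 to 97.0 in basal WT). Per2 was at 26.7 and 23.5 CPM in basal TAU and at 30.2, 28.9 and 31.1 CPM in basal WT (−0.26 ± 0.12 SE, adjusted p = 0.901). Its log2 fold change was −0.17 without basal TAU replicate 2. The remaining genes overlapped between the groups. Cry1 was at 14.4 and 17.6 CPM against 15.15 to 17.8, Cry2 at 163 and 133 CPM against 162.5 to 169, and Npas2 at 17.3 and 17.5 CPM against 15.7 to 19.0. Of the 6 immediate early genes, 2 were called lower in basal TAU by edgeR (Arc and Nr4a1), beside 0.0245% of all genes called in either direction. All 6 lay wholly lower, had an unadjusted p under 0.05 and were called lower by DESeq2, and their summed level was 256 to 309.7 CPM against 581 to 721.

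Whether the time of dissection differed between groups was examined from the transcripts, since the labels give no time of death for any library. By the methods of the study, mice lived on a light and dark cycle and were killed within one window of the morning in an order randomized over groups. A group killed later in the day would be expected, as background, to hold less of the morning-high transcripts (Arntl, Npas2, Clock, Nfil3) and more of the evening-high ones (Dbp, Nr1d1, Nr1d2, Tef, Hlf, Gm129, Usp2, Bhlhe41). The mean log2 CPM of the evening-high genes minus that of the morning-high genes was 1.77 and 1.85 in WT VEH and 1.63, 1.74 and 1.68 in WT VEH_HC. The TAU VEH libraries gave 1.28 and 1.497, and the TAU MOL libraries 1.501 and 1.55. In the learning experiment the WT libraries were thus the 5 highest and the THY-Tau22 libraries the 4 lowest. In the basal experiment it was 0.97, 1.34 and 1.197 in basal WT and 1.17 and 0.61 in basal TAU, with overlap.

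With training in WT mice, 1 of the 4 morning-high genes was called higher (Clock) and 1 lower (Arntl), and of the 8 evening-high genes 1 was called higher (Nr1d2) and 1 lower (Usp2), beside 5.35% and 3.05% of all genes. In TAU VEH against WT VEH, all 8 evening-high genes lay wholly lower and 4 were called (Nr1d1, Dbp, Usp2 and Bhlhe41), while of the morning-high genes Clock was called higher and Npas2 lower. Of all genes, 57.9% did not overlap there, 10.8% were called lower and 3.61% higher. The median log2 fold change was −0.33 over the evening-high and 0.14 over the morning-high genes. In TAU MOL against WT VEH, 5 of the evening-high genes lay wholly lower and 2 wholly higher, with Nr1d1 called lower by edgeR, and DESeq2 called Nr1d1 and Dbp. Of the morning-high genes 3 lay wholly higher and 1 wholly lower there, with 0 called by edgeR (3 had an unadjusted p under 0.05) and Clock called higher by DESeq2, beside 52.5% of all genes that did not overlap and 5.63% called by edgeR. The ratio of Dbp to Arntl CPM was 2.25 and 2.64 in WT VEH and 1.53, 1.58 and 1.63 in WT VEH_HC. It was 1.08 and 1.70 in TAU VEH, 1.75 and 1.63 in TAU MOL, 0.883, 0.969 and 0.951 in basal WT and 0.728 and 0.386 in basal TAU. The ratio thus set WT VEH apart from all other learning libraries, whereas TAU VEH spread around WT VEH_HC and TAU MOL lay at its upper end or above. Dbp and Nr1d1 are evening-high genes of high GC content, and the trend with GC content given above moves with the same contrast. Time of death and group cannot be told apart from these labels.

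**Figure D4:**
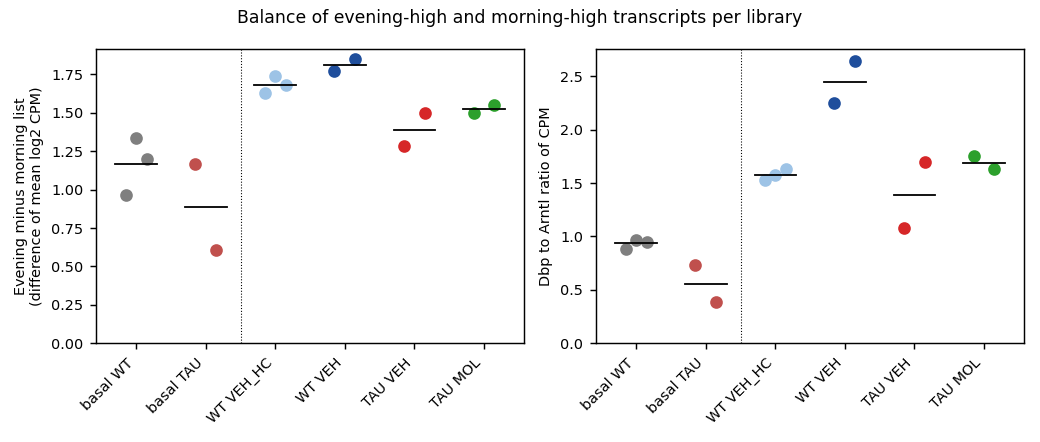
Left, mean log2 CPM of 8 evening-high genes minus that of 4 morning-high genes (y axis) in each library (points) with the group mean (line); right, the ratio of Dbp to Arntl CPM. The 4 libraries of TAU VEH and TAU MOL lie at 1.28 to 1.55 on the left, below the 5 WT libraries of the learning experiment.

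A further 20 genes of the pathway were read beside the 10, all detected and tested. With training in WT mice, 2 were called higher, Nr1d2 (the paralog of Nr1d1; 46.2 ± 1.1 CPM, SD, n = 2, against 30.8 ± 2.3, n = 3; log2 fold change 0.59 ± 0.07 SE, adjusted p = 0.00143) and Bhlhe40 (a repressor of E-box genes that neuronal activity also induces; 0.53 ± 0.08 SE, adjusted p = 0.00391), and 1 lower, Usp2 (a deubiquitinase; −0.46 ± 0.08 SE, adjusted p = 0.00961), beside 5.35% and 3.05% of all genes. In TAU VEH against WT VEH, 3 were called lower, Bhlhe40 (−0.41 ± 0.09 SE, adjusted p = 0.00791), Usp2 (−0.40 ± 0.09 SE, adjusted p = 0.00924) and Bhlhe41 (−0.26 ± 0.08 SE, adjusted p = 0.0454), and 1 higher, Rora (a receptor that opposes REV-ERB at ROR elements and is on the thalamus marker list as well; 0.35 ± 0.10 SE, adjusted p = 0.0371), beside 10.8% and 3.61% of all genes. Both comparisons share the WT VEH libraries, so that a level that was high or low in these moves both. In TAU MOL vs TAU VEH, TAU MOL vs WT VEH and the basal comparison, 0 of the 20 were called by edgeR, with 5, 5 and 1 whose unadjusted p was under 0.05 and 0, 0 and 0 called by DESeq2. On the log2 scale the median of the 20 genes was 0.07 with training and 0.04 in TAU VEH against WT VEH, beside 0.00 and 0.00 over all genes.

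The genes whose pattern over the 9 learning libraries was nearest to Per1, by the mean absolute difference of log2 CPM centred on the mean of each gene, were Rara (0.0914), mt-Ti, Slc31a1, Tnfrsf12a and Ucp2. The nearest clock gene to Per1 was Per2 (0.149), and the median over all 16820 genes was 0.302. Nearest to Dbp were 2410006H16Rik (0.0688), Tmed1, Vkorc1, Cib1 and Rplp1, and among the clock genes Nr1d1 (0.12), with a median over all genes of 0.258. Nearest to Arntl were Gm10419 (0.0441), Exd2, Tubd1, Hhex and Lmo7, and among the clock genes Per3 (0.155, median over all genes 0.192). None of these 15 nearest genes was one of the 30 clock and pathway genes.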

How the data were processed

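Poly-A RNA of the dorsal hippocampus was sequenced single-end in 14 libraries, 1 per mouse. Per the submitters' processing notes and the methods, the authors used CASAVA 1.8.2, aligned reads to mm9 with TopHat2 2.0.10 and Bowtie2 2.1.0, and counted uniquely aligned reads per Ensembl gene with HTSeq 0.5.4p3. They deposited raw counts, used for every test here, and a normalized signal (each library's counts over a single factor), read only to check columns. The authors left out 3 libraries of the learning experiment from 1 litter; they are not analysed here.

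With edgeR 4.0.16, 1 model was fitted to the 5 basal and 1 to the 9 learning libraries (TMM, filterByExpr, quasi-likelihood F test, Benjamini-Hochberg adjustment over 16324 and 16820 genes). Left out were 138 lines without values (learning), and 1976 of 26570 basal genes had no count. DESeq2 1.42.0, other scalings, no filter, fewer groups, the replicate block, a loess correction (span 0.3) for GC content and length, a choroid plexus covariate and leaving out each library were alternatives. Log2 CPM has a prior count of 1. The coefficient of variation between replicates was 0.129 (basal) and 0.084 (learning). How far depth and the number of mice each limit precision was not tested. Intervals are 95% intervals of the fit. GC content and exons came from GENCODE on NCBIM37 and were at hand for 99.8% of genes tested.

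All 10 clock genes are named in each comparison, called genes of the other 20 pathway genes are named, and the 5 nearest genes are given for Per1, Dbp and Arntl. The members and lists were chosen with earlier results of these data known. The neocortex, thalamus, glia and endothelial marker lists are in the limits below.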

Additional observations from a re-analysis of the deposited data

How the results depend on the processing

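Of 610 refits of single clock genes, 516 kept their direction and side of the threshold, 53 lost and 10 gained a call, and 31, all of genes that were not called, changed sign. The number of clock genes called stayed at 0 in the basal comparison and in TAU MOL vs TAU VEH under each alternative. With training in WT mice (4 called) it was 2 in the fit on only the groups compared, 0 with the choroid plexus covariate and 1 to 4 when single libraries were left out, beside 1.89%, 0.0% and 0.422% to 16.7% of all genes. For TAU VEH vs WT VEH (7 called) it came to 3 under the GC and length correction, 0 with the covariate and 4 to 6 in leave-one-out fits, beside 2.77%, 0.0% and 5.29% to 7.36%. For TAU MOL vs WT VEH (3 called) it was 5 with DESeq2 and 5 in the fit on only the groups compared, 0 with the GC correction, 0 with the covariate and 0 to 0 in leave-one-out fits, beside 5.07%, 9.19%, 0.0951%, 0.0119% and 0.0116% to 0.0231%. The choroid plexus level was nearly confounded with group, which leaves the covariate fit little to estimate the groups from. The cause of the other shifts was not tested.

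Sign changes, given as log2 fold changes, were these. In the basal comparison, Cry1 went to 0.0165 (library size alone) and 0.0358 (GC correction), Npas2 to 0.006 (GC correction), and with the covariate Clock to −0.1115 and Nr1d1 to 0.0221; leave-one-out values ran from −0.1597 to 0.1516 for Cry1, −0.0894 to 0.0296 for Npas2, −0.0908 to 0.5817 for Clock and −0.6542 to 0.023 for Nr1d1. With training, Per3 went to 0.0087 and Cry2 to 0.027 (GC correction), with the covariate Per3 to 0.626, Cry2 to 0.0898, Nr1d1 to −0.3023 and Dbp to −0.1207, and Per3 ran from −0.1731 to 0.0343 in leave-one-out fits. In TAU VEH vs WT VEH, Per3 went to 0.0434 and Cry1 to 0.0593 (library size alone), and Cry1 ran from −0.2002 to 0.0416. In TAU MOL vs TAU VEH, Per1 was at −0.0508 with the covariate, Arntl ran from −0.1012 to 0.0177 and Dbp from −0.0205 to 0.5771. In TAU MOL vs WT VEH, Per3 went to −0.0065 (GC correction) and −0.2033 (covariate), and Cry1 to −0.0012 (covariate) and from −0.1042 to 0.1393 in leave-one-out fits.

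No label ties replicate numbers to a shared litter, batch or day. The deviations of same-numbered libraries from their group means had correlations of −0.161 to −0.0647 in the basal and −0.0394 to 0.243 in the learning experiment. In a group of 2 libraries the deviations mirror each other, so these correlations cannot decide whether same-numbered libraries belong together. With the replicate block, 4 clock genes were called with training, 7 in TAU VEH against WT VEH, 0 in TAU MOL against TAU VEH and 4 in TAU MOL against WT VEH, where Clock was the call added, beside 17.8%, 16.6%, 0.0% and 7.85% of all genes. In the basal comparison it called 0 (0.227% of all genes), and Npas2 changed sign to 0.0327.

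With 2 or 3 mice a group, p-values cover the spread between these mice only. Of the other lists, 3 of 5 neocortex markers were called lower in TAU VEH vs WT VEH (10.8% of all genes were, and 3.61% higher), as were 3 of 8 hippocampal markers, of which 1 was called higher (DESeq2 called 3 lower and 2 higher), while 1 of 7 thalamus markers each rose and fell and 2 of 4 astrocyte markers rose. Of the oligodendrocyte, microglia and endothelial markers 0 were called there. In TAU MOL vs WT VEH, edgeR called 1 neocortex and 2 hippocampal markers lower and 1 astrocyte and 1 hippocampal marker higher (5.02% and 0.612% of all genes), and DESeq2 called 1 and 3 lower and 1 and 1 higher. With training, edgeR called 1 of 4 microglia markers higher and 1 hippocampal marker lower (5.35% and 3.05%), and DESeq2 called 1 microglia, 1 neocortex and 1 astrocyte marker higher and 1 hippocampal marker lower. In TAU MOL vs TAU VEH and the basal comparison edgeR called 0 of these markers (7 and 7 had an unadjusted p under 0.05). DESeq2 called 1 hippocampal marker lower and 1 thalamus marker higher in the former and Gfap, an astrocyte marker, higher in the latter, where 3 of 4 microglia markers lay wholly higher.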
